A study of Homo sapiens with 12 samples.

Results

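The RNA that CPSF6-silenced HepG2 cells lost and kept over the first 3 h after transcription was stopped is described here. HepG2 is a human liver cancer line that still makes many plasma proteins of the hepatocyte. The account rests on 4 of the 12 libraries of the study: 2 replicates of cells given siRNAs against CPSF6 (siCPSF6), grown for 48 h and collected 3 h after actinomycin D was added at 5 µg/ml, and 2 replicates of the same cells collected at 0 h. Of 22148 gene entries, 12939 had a mean normalized count of at least 20 over all 12 libraries and were tested. For comparison the account uses siCPSF6 cells at 6 h in the drug and the control arm of the study, labelled si-NC (siNC here), at 3 h and at 0 h, with 2 replicates each. All groups are the same cell line, transfected and grown for the same time, and the 0 h cells are the starting point of each arm. The labels number the replicates without naming separate cultures, so p-values measure the spread between these libraries, which may be technical.

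Actinomycin D binds DNA and stops RNA synthesis, so that what is left of an RNA after a set time reflects how fast it is removed. In the cytoplasm, removal of most mRNAs starts with shortening of the poly(A) tail by the CCR4-NOT complex and goes on with decapping and digestion from the 5′ end. AU-rich elements in 3′ untranslated regions (3′ UTRs) are bound by proteins of the ZFP36 family, which bring in that complex and shorten the life of the mRNA. CPSF6 belongs to cleavage factor Im, where its partner NUDT21 recognises the RNA upstream of poly(A) sites, and the complex helps to set which poly(A) site is used and so how long a 3′ UTR the mRNA carries.

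CPSF6 itself was checked first. Its normalized counts were 674 and 801 in siCPSF6 cells at 3 h and 768 and 718 at 0 h, against 3389 and 3309 in siNC cells at 3 h and 2147 and 2082 at 0 h. Every siCPSF6 library lay below every siNC library. Between 3 h and 0 h the siCPSF6 libraries overlapped, and the log2 change was -0.02 (standard error, SE, 0.09, adjusted p = 0.88 by limma with Benjamini-Hochberg adjustment over all genes tested). The sign of this change depended on the libraries, as it was 0.03 without the first 0 h replicate and 0.11 without the first 3 h replicate. Scaled to spike-ins CPSF6 fell by 0.55 (adjusted p = 0.005), a call that was lost without the first 3 h library (-0.24, adjusted p = 0.15).

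The 4 libraries held normalized counts of 28180129 and 27642662 at 3 h and of 20546598 and 20170792 at 0 h, and all 12 held between 19133288 and 33352246. The deposited counts were set by their authors to an equal upper quartile, so that a gene that persists while others are lost comes out as higher. The second scale divides by the summed ERCC spike-in RNAs, which were added to 5 µg of total RNA and therefore set values per mass of total RNA, not per cell. Spike-ins took 1.429% and 1.128% of the counts at 3 h and 1.222% and 1.182% at 0 h. The first 3 h library thus stood apart from the second on this scale: the median over 36 spike-ins was 0.358 higher in log2 in the first, which moves every gene of that library at once. The counts of all genes and the main list counts on the spike-in scale are therefore also given without each 3 h library. In bulk RNA, fewer cells and less RNA per cell cannot be told apart. The hepatocyte markers summed to 1309441 to 1352373 at 3 h and 703590 to 747380 at 0 h. Of 17 genes that mark fibroblasts, endothelium and blood cells, 11 were in the table, and their sums were 10704 to 15899 at 3 h and 6631 to 9907 at 0 h, with 4 of the 11 under a mean of 20. Most of these sums came from LYZ alone, with 13706 and 8770 counts at 3 h and 8665 and 5441 at 0 h. The part of these markers in the results was not tested.

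The first 3 h split the transcriptome into a long tail of RNAs that were lost and a broad majority that moved together. As deposited, 2965 genes (22.9% of those tested) were lower at 3 h than at 0 h and 5647 (43.6%) were higher at an adjusted p under 0.05, so that 66.6% passed in either direction. Scaled to spike-ins, 4971 genes (38.4%) were lower and 381 (2.94%) were higher. The median change of all genes was 0.25 in log2 as deposited and -0.28 scaled to spike-ins, with 5th and 95th percentiles of -1.58 and 0.898 as deposited. All 2965 genes lower as deposited were also lower scaled to spike-ins, and all 381 genes higher on the spike-in scale were also higher as deposited. The split of calls was therefore set by the scale: 65.6% of them were rises as deposited, 50.4% with median-ratio scaling, 19.7% in the TPM table and 7.12% scaled to spike-ins. On the deposited scale, where the equal upper quartile holds libraries together, the first and second replicate pair had medians of 0.25 and 0.24, and on the spike-in scale they had -0.43 and -0.14. Without the first 3 h library the spike-in scale called 1503 genes higher and 3769 lower, and without the second 179 higher and 6380 lower. With the replicate number as a block it called 662 higher and 5678 lower.

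**Figure D1:**
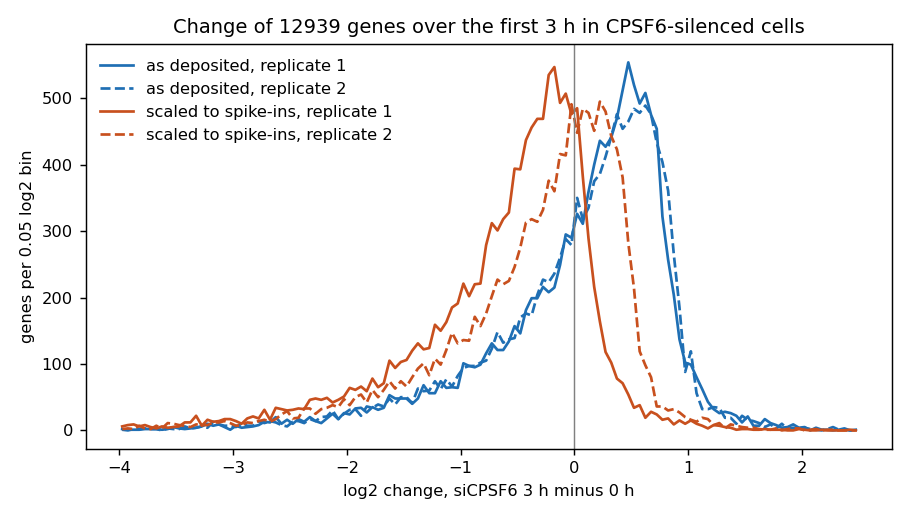
Number of genes (y axis, per bin of 0.05) by log2 change from 0 h to 3 h in siCPSF6 cells (x axis), for replicate 1 (solid) and replicate 2 (dashed), as deposited (blue) and scaled to spike-ins (orange). The deposited curves lie on each other with medians of 0.25 and 0.24, the spike-in curves are shifted against each other with medians of -0.43 and -0.14, and each has a long tail to the left.

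Large falls were common and large rises were rare. As deposited, 1305 genes (10.1%) were lower by at least 2-fold and 353 (2.73%) by at least 4-fold, while 368 were higher by at least 2-fold. If loss is taken as exponential and synthesis as fully stopped, the change on the spike-in scale gives an apparent half-life. For the 4971 genes called lower on that scale its median was 2.95 h, with quartiles of 1.89 h and 4.4 h. It was 1 h or less for 193 genes, between 1 and 2 h for 1179 and between 2 and 3 h for 1178. Without the first 3 h library these classes held 170, 980 and 929 genes, and without the second 247, 1452 and 1450. For the 353 genes with at least a 4-fold fall the median was 0.99 h, and the shortest was 0.477 h. As deposited, the median change of these 353 genes was -2.50 over the first 3 h and -0.12 over the next 3 h. Loss at a single rate thus did not hold for them as a group, and their half-lives describe the first 3 h only.

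The AU-rich heptamer, a sequence that ZFP36 proteins bind, stood in the 3′ UTRs of 39.1% of 330 genes with at least a 4-fold fall and of 33.1% of all 11055 genes with a modelled 3′ UTR. The sites of 8 genes that fell and recur in the results below are shown as examples of it, and 4 of them are among the 12 largest falls named next. Each line gives 27 bases of a GRCh38 3′ UTR from the GENCODE 29 transcript model, 5′ to 3′ on the strand of the gene, with the heptamer in capitals. They lie at chr14:35401700-35401726 (minus strand) for NFKBIA, chr17:72125499-72125525 (plus) for SOX9, chr3:39142886-39142912 (minus) for CSRNP1, chr6:134169478-134169504 (minus) for SGK1, chr2:43223449-43223475 (minus) for ZFP36L2, chr1:58780820-58780846 (minus) for JUN, chr2:8683876-8683902 (plus) for ID2 and chr19:18279999-18280025 (minus) for JUND.
NFKBIA: ccacattttaTATTTATtgtgcttcga
SOX9: ttgctaaaatTATTTATtttgtaagga
CSRNP1: tctctggattTATTTATttgttttaac
SGK1: aaatgggcatTATTTATgttttttttt
ZFP36L2: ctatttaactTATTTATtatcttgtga
JUN: tgcttatgaaTATTTATaacagcattc
ID2: tgatattcgtTATTTATgaaaaagact
JUND: gattctgcccTATTTATgtttctactc
The heptamer was read on the transcript strand only, and copies may overlap. It was in 9.82% of all 3′ UTRs of 100 to 500 bases, 19.9% of those of 500 to 1000, 32.0% of those of 1000 to 2000 and 53.2% of those of 2000 to 4000. A match is a description of these letters and not a shown binding site. Among the 12 largest falls it was also looked for in TRIB1, HES1, NEDD9, CITED2, DUSP6 and DDIT4, whose modelled 3′ UTRs did not hold it, and no 3′ UTR was used for MT-ND6 or MYC. FOXA1, XBP1, ID1, NR0B2, RHOB and TOB1, which also fell by more than 4-fold, did not hold it either.

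Among called genes with a mean count of at least 100, the 12 largest falls were those of MT-ND6, NFKBIA, TRIB1, HES1, SOX9, MYC, NEDD9, CITED2, CSRNP1, DUSP6, DDIT4 and SGK1. NFKBIA encodes the inhibitor IκBα, which holds NF-κB in the cytoplasm and is itself made in response to NF-κB. It had 44 and 51 normalized counts at 3 h against 1899 and 2320 at 0 h, a log2 change of -5.44 (SE 0.28, adjusted p = 2.1e-08). The libraries of the 2 times did not overlap, as was the case for 83.9% of all genes, and 2.3% of the 0 h level was left. Its apparent half-life was 0.502 h (95% interval 0.446 to 0.575 h). This value holds for the first 3 h only, as the counts of NFKBIA did not fall further by 6 h. TRIB1, a pseudokinase that guides a ubiquitin ligase to its substrates and binds MEK1, had 35 and 48 counts at 3 h against 1561 and 1484 at 0 h, a change of -5.18 (SE 0.19). HES1, a Notch-responsive repressor, had 35 and 10 counts at 3 h against 534 and 386 at 0 h, a change of -4.51. Its 3 h replicates were far apart, and its SE was 0.46.

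SOX9, a transcription factor of liver progenitor and bile duct cells, had 147 and 132 counts at 3 h against 3080 and 2613 at 0 h, a change of -4.34 (SE 0.11). MYC, the growth-promoting transcription factor whose mRNA is a classic short-lived message, had 328 and 233 counts at 3 h against 5448 and 4714 at 0 h, a change of -4.19 (SE 0.19) and an apparent half-life of 0.635 h. NEDD9, a scaffold of focal adhesions, had 360 and 279 counts at 3 h against 6645 and 5001 at 0 h, a change of -4.18. In each of these genes the 3 h libraries lay close together and far below the 0 h libraries.
CITED2 (-4.12), which competes with HIF for CBP and p300, CSRNP1 (-4.09), a nuclear factor induced by AXIN1, DUSP6 (-3.93), the phosphatase of ERK, DDIT4 (-3.89), an inhibitor of mTORC1, and SGK1 (-3.88), a kinase induced by serum and glucocorticoids, made up the rest of the nuclear-encoded ones. DUSP6 had 72 and 43 counts at 3 h against 1163 and 642 at 0 h, so that its replicates differed at both times and its SE was 0.48. The first replicate was higher at both times, and the change was -3.995 in the first replicate pair and -3.869 in the second. SOX9, NEDD9, CITED2, CSRNP1, DUSP6, DDIT4 and SGK1 overlap genes on the opposite strand, and SGK1 also on its own strand. As the strand setting of the counting is not given in the sources used here, reads of the partners cannot be told apart, and this holds for any overlapping gene named below, such as ID2, FOXA1, CEBPA, NFE2L2 and CLP1.

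**Figure D2:**
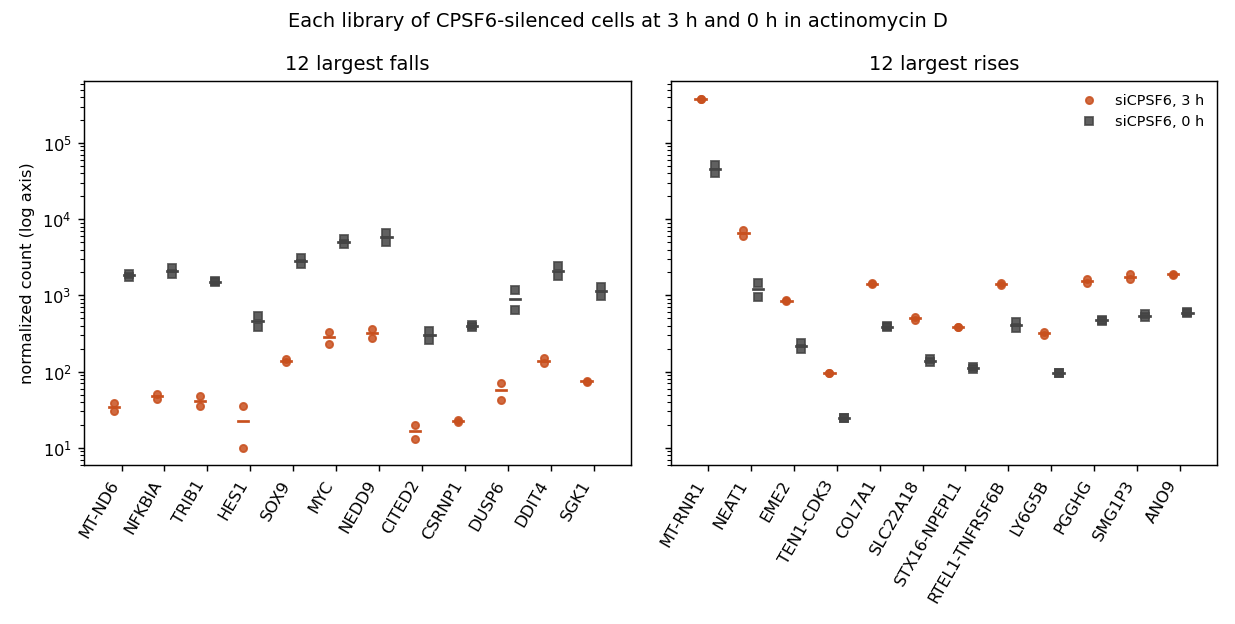
Normalized count (log axis) of each siCPSF6 library at 3 h (orange circles) and 0 h (grey squares) for the 12 genes with the largest falls (left) and the 12 with the largest rises (right) among called genes with a mean of at least 100, a gene symbol and times that do not overlap; bars mark the group mean. In NFKBIA the 3 h libraries lie at 44 and 51 and the 0 h libraries at 1899 and 2320, and in MT-RNR1 the 3 h libraries lie at 374054 and 383400 and the 0 h libraries at 40339 and 50718.

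Immediate early factors, the genes that cells switch on within minutes of a signal, fell most as a list: 27 of 30 measured members were lower at 3 h, 2 were higher and 1 did not pass, with a median change of -2.42 beside 0.25 for all genes. The transcription factors JUN (176 and 158 counts at 3 h, 1728 and 1553 at 0 h, change -3.29) and ID2 (530 and 614 at 3 h, 5096 and 5807 at 0 h, -3.25) fell about alike, as did ID1 (1206 and 959 at 3 h, 10092 and 9723 at 0 h, -3.20), which like ID2 blocks the binding of other helix-loop-helix factors. In all 3 the times were far apart compared with the replicates. Values in this and the following paragraphs are as deposited unless another scale is named, and the list members given as not passing were lower scaled to spike-ins in the fit of all 12 libraries, except BTG3. Every list count as deposited is to be read beside 22.9% lower and 43.6% higher of all genes. On the spike-in scale these shares were 38.4% and 2.94%. RHOB, a small GTPase of endosomes, had 1687 and 1413 counts at 3 h against 8263 and 8762 at 0 h, a change of -2.46. The 2 members that rose were MAFG (0.27) and MAFK (0.75), small Maf proteins that pair with NRF2, neither of which passed scaled to spike-ins (-0.26 and 0.22), and SRF, which drives many immediate early promoters, did not pass (0.06).

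Feedback inhibitors of MAP kinase signalling were lower in 15 of 16 members, none was higher, and the median was -1.81. Scaled to spike-ins all 16 were lower, as were 28 of the 30 immediate early factors, and these counts were 16 and 28 without the first 3 h library and 16 and 29 without the second. Besides TRIB1 and DUSP6 they included the Sprouty-related SPRED2 (466 and 468 counts at 3 h, 1553 and 1456 at 0 h, -1.69) and the phosphatase DUSP16 (527 and 471 at 3 h, 1942 and 1891 at 0 h, -1.94). DUSP14 was the member that did not pass (-0.07). BMP and TGF-β targets were lower in 13 of 18 members, with none higher and a median of -1.71. They included the ID genes, the feedback inhibitor SMAD7 (329 and 336 counts at 3 h, 965 and 1217 at 0 h, -1.70) and HAMP (-2.56), which encodes the iron hormone hepcidin. The receptors BMPR2 (-0.18) and ACVR1 (-0.11) did not pass. Of 21 NF-κB factors and feedback genes 10 were lower and 3 higher, with a median of -0.40. Within this list the inhibitors split: NFKBIA and NFKBIE (32 and 29 counts at 3 h, 290 and 272 at 0 h, -3.16) fell, TNFAIP3, the A20 ubiquitin editor, fell by 1.38 (288 and 318 at 3 h, 842 and 742 at 0 h), and NFKBIB was higher (0.60 as deposited, 0.06 scaled to spike-ins). The subunit RELA itself did not pass (-0.20).

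Transcription factors that keep hepatocyte identity were lower in 16 of 25 members, higher in 3 and below the threshold in 6, with a median of -1.07. FOXA1, a pioneer factor that opens liver enhancers, had 270 and 304 counts at 3 h against 2409 and 2792 at 0 h, a change of -3.17. FOXA2 had 209 and 190 counts at 3 h against 1313 and 1150 at 0 h, a change of -2.62. NR0B2, the nuclear receptor SHP that represses bile acid synthesis, had 93 and 91 counts at 3 h against 815 and 739 at 0 h, a change of -3.06. CEBPA (-2.66), CEBPB (-2.62), GATA4 (-2.68) and GATA6 (-3.0) fell to a like degree. HNF4A, a main regulator of hepatocyte genes, fell less (2285 and 2396 counts at 3 h, 3783 and 3904 at 0 h, -0.72), and it was the only 1 of 10 hepatocyte markers that was lower. The nuclear receptors RXRA (0.35) and PPARA (0.50) were higher as deposited, but no member of this list was called higher scaled to spike-ins.

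Among KRAB zinc finger genes, a large family of repressors that bind transposons and promoters, 89 of 145 measured members were lower, 13 higher and 43 not called, with a median of -0.77 and a range of -4.28 to 1.13. ZNF668 had 40 and 54 counts at 3 h against 383 and 426 at 0 h, and ZNF799 24 and 24 at 3 h against 182 and 201 at 0 h. Their changes were -3.09 and -2.94, and ZNF799 overlaps genes on its own strand. KLF and SP factors, which bind GC-rich promoter boxes, were lower in 11 of 13 members with none higher. KLF10 had 81 and 90 counts at 3 h against 762 and 839 at 0 h, a change of -3.21. Circadian clock genes were lower in 9 of 20 members and higher in 1. The repressors NR1D1 (32 and 33 counts at 3 h, 221 and 292 at 0 h, -2.93) and NFIL3 (198 and 147 at 3 h, 1267 and 1357 at 0 h, -2.94) fell, and so did the activator TEF (-1.44). The activators CLOCK (-0.18) and BMAL1 (-0.50) did not pass, nor did the repressor CRY1 (0.13).

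Genes that act on AU-rich and deadenylated mRNAs were themselves split. Of 24 members 13 were lower and 6 higher, with a median of -0.35. All 3 ZFP36 family members, which bind AU-rich elements, were lower: ZFP36L2 had 307 and 247 counts at 3 h against 2589 and 2900 at 0 h (-3.31), ZFP36L1 632 and 674 at 3 h against 1901 and 1741 at 0 h (-1.48), and ZFP36 changed by -2.26. The BTG and TOB adaptors, which couple the CCR4-NOT complex to mRNAs, were also lower, among them BTG1 (40 and 41 counts at 3 h, 292 and 296 at 0 h, -2.83), TOB1 (309 and 253 at 3 h, 1398 and 1349 at 0 h, -2.29) and BTG2 (338 and 341 at 3 h, 1010 and 1189 at 0 h, -1.69). BTG3 did not pass (0.14). The scaffold CNOT1 (-0.04) did not pass either, and ELAVL1, the HuR protein that stabilizes AU-rich mRNAs, was higher (0.21 as deposited). That rise was no larger than the median of 0.25 for all genes, and no member of this list was called higher scaled to spike-ins. mRNA decay enzymes and decapping factors had a median of 0.06, with 14 of 38 higher and 11 lower, beside 43.6% and 22.9% of all genes. Scaled to spike-ins 22 were lower and none was higher, with 13 lower and 2 higher without the first 3 h library and 30 lower without the second. DCP1B, a decapping activator, had 81 and 82 counts at 3 h against 299 and 312 at 0 h, a change of -1.89.

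Stress response lists held falls and rises side by side. Of 26 genes of the integrated stress response 11 were lower and 9 higher, with a median of 0.04 as deposited and -0.50 scaled to spike-ins. The regulators fell, with DDIT3 at -4.28, SESN2 at -3.04 (95 and 133 counts at 3 h, 871 and 1000 at 0 h) and the phosphatase subunit PPP1R15A at -2.48 (92 and 81 at 3 h, 522 and 452 at 0 h). The enzymes and transporters PHGDH (0.67), SHMT2 (0.58), ASNS (0.50) and SLC7A5 (0.71) were higher as deposited. CDKN1A, the cell cycle inhibitor p21, had 527 and 526 counts at 3 h against 2393 and 2319 at 0 h (-2.16). In the list of NRF2 targets 17 of 26 members were higher and 5 lower, and the median of 0.49 became -0.04 scaled to spike-ins. That spike-in median was 0.18 without the first 3 h library and -0.22 without the second. NFE2L2, the NRF2 factor itself, fell by 1.30 (1847 and 1593 counts at 3 h, 4438 and 4037 at 0 h), and OSGIN1, a target, by 2.77 (70 and 61 at 3 h, 459 and 441 at 0 h). G2 and mitosis genes were lower in 12 of 35 members and higher in 5, beside 22.9% lower and 43.6% higher of all genes. Those lower included the kinases AURKA (1508 and 1359 at 3 h, 3655 and 3582 at 0 h, -1.34) and TTK (290 and 296 at 3 h, 653 and 676 at 0 h, -1.18). Scaled to spike-ins 29 were lower and none was higher, beside 38.4% and 2.94% of all genes. The list median on that scale was -0.64, with -0.43 without the first 3 h library and -0.86 without the second. As deposited, G1 and S phase genes were higher in 21 of 37 members and lower in 11, with a median of 0.29 that turned to -0.25 scaled to spike-ins. The spike-in median was 0.0 without the first 3 h library and -0.51 without the second.

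**Figure D3:**
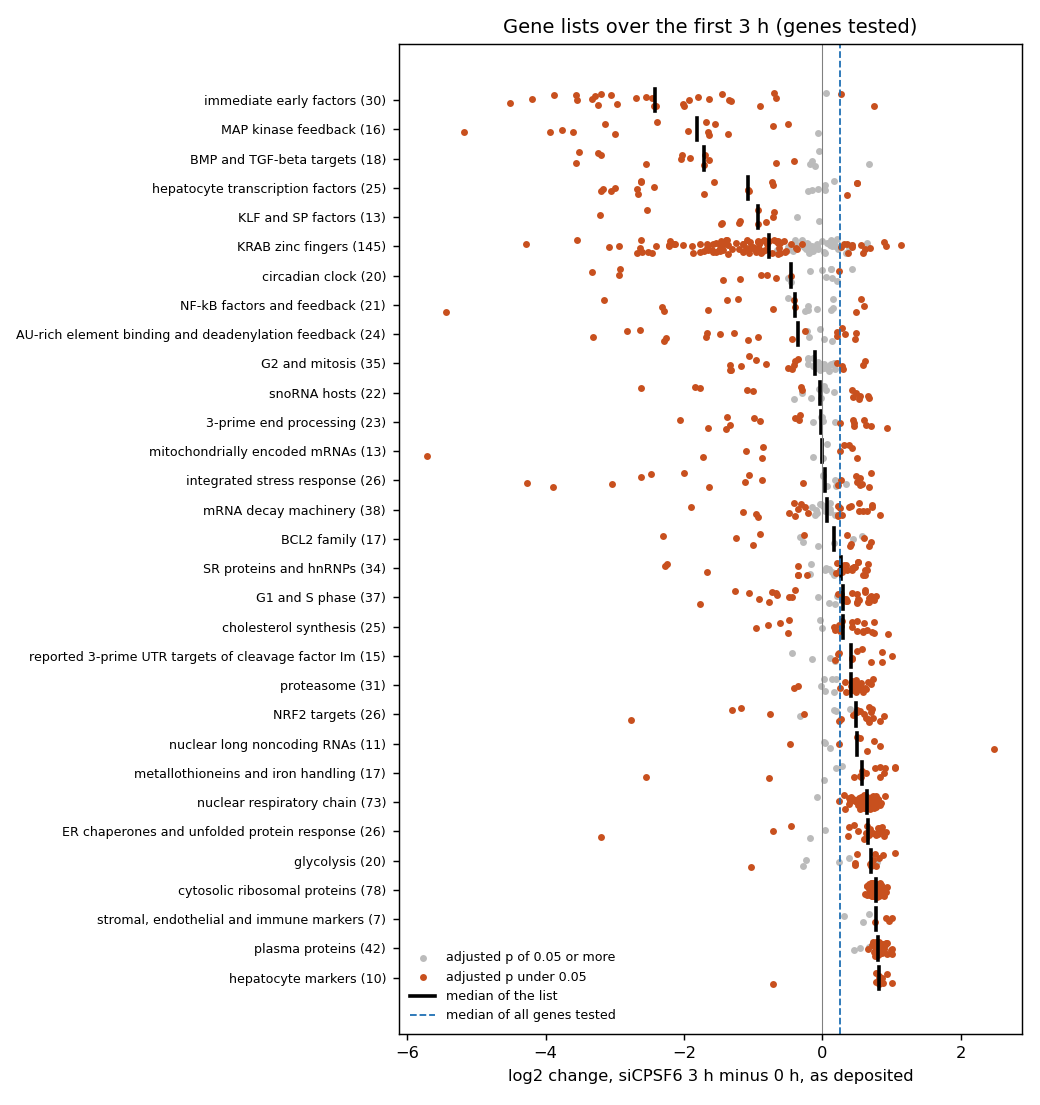
Log2 change from 0 h to 3 h in siCPSF6 cells as deposited (x axis) for every tested member of 31 gene lists (rows, with the number tested), orange where the adjusted p was under 0.05 and grey otherwise. Black bars are list medians and the dashed line is the median of all genes, 0.25; scaled to spike-ins every point lies about 0.5 further left. Immediate early factors have the lowest median, -2.42, and plasma proteins and hepatocyte markers lie at 0.81 and 0.82.

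mRNAs of the cell's main products persisted and took a larger share of the mRNA. All 78 cytosolic ribosomal protein mRNAs were higher as deposited, within a narrow range of 0.61 to 0.94 and with a median of 0.77. Scaled to spike-ins their median was 0.24, and 9 of 78 passed as higher, but 74 did so without the first 3 h library and 0 without the second. RPLP1, a stalk protein of the large subunit, had 28656 and 30119 counts at 3 h against 16255 and 14446 at 0 h, a change of 0.94 as deposited and 0.40 scaled to spike-ins (adjusted p = 0.013, and 0.14 without the second 3 h library). Nuclear-encoded respiratory chain genes were higher in 72 of 73 members with a median of 0.65, and at 0.12 on the spike-in scale, where none was higher and 1 was lower (33 and 1 without the first 3 h library, 0 and 9 with a median of -0.11 without the second). NDUFV1, a catalytic subunit of complex I, had 4866 and 4909 counts at 3 h against 2828 and 2767 at 0 h, a change of 0.80.

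Plasma protein mRNAs, the main secretory output of liver cells, were higher in 38 of 42 members with none lower, a median of 0.81 as deposited and 0.28 scaled to spike-ins, where 6 passed as higher (33 without the first 3 h library, 1 without the second). APOB, the structural protein of LDL, had 475972 and 414796 counts at 3 h against 225507 and 218616 at 0 h, a change of 1.0 as deposited and 0.47 scaled to spike-ins (adjusted p = 0.0016). APOA1, the main protein of HDL, had 98446 and 105224 counts at 3 h against 53456 and 52734 at 0 h, a change of 0.94. ALB, albumin, had 225826 and 244386 counts at 3 h against 139445 and 134553 at 0 h, a change of 0.78, which on the spike-in scale was 0.24 and did not pass (adjusted p = 0.14), although it passed without the first 3 h library (0.49). In these 3 genes the 3 h libraries lay well above the 0 h libraries as deposited.

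ER chaperones and genes of the unfolded protein response were higher in 21 of 26 members, with a median of 0.66 as deposited and 0.12 scaled to spike-ins. CALR, a lectin chaperone of the ER, had 94532 and 91138 counts at 3 h against 54832 and 51218 at 0 h (0.81). XBP1, the transcription factor that drives many of them, went the other way, with 596 and 632 counts at 3 h against 5660 and 5605 at 0 h, a change of -3.20 (SE 0.08). Its change was the lowest of the list, and HERPUD1 (-0.71) and DNAJB9 (-0.46) were the only other members that fell. Glycolysis genes were higher in 14 of 20 members (median 0.70 as deposited, 0.16 scaled to spike-ins). GAPDH had 113608 and 108392 counts at 3 h against 66070 and 59951 at 0 h (0.82). Of 17 metallothionein and iron genes 12 were higher, with a median of 0.57 as deposited and 0.04 scaled to spike-ins. The ferritin light chain FTL had 335694 and 361493 counts at 3 h against 198350 and 191260 at 0 h (0.84).
Proteasome genes were higher in 23 of 31 members and cholesterol synthesis genes in 18 of 25, but both medians changed sign with the scale (0.42 and 0.29 as deposited, -0.11 and -0.25 scaled to spike-ins). This change of sign rested on the first 3 h library. Without it the spike-in medians were 0.17 and 0.0, and without the second they were -0.35 and -0.43. SR proteins and hnRNPs were higher in 20 of 34 members as deposited, and their median also changed sign (0.27 and -0.27). The splicing kinase CLK1, which is counted in this list, fell by 2.28 (205 and 217 counts at 3 h, 1083 and 979 at 0 h).

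Transcripts of the mitochondrial genome, which is read by its own polymerase, did not move together. Of 13 mRNAs 5 were lower and 5 higher as deposited, and scaled to spike-ins 8 were lower and none was higher (8 lower without the first 3 h library, 11 without the second). MT-ND6, the only 1 of the 13 on the minus strand of the annotation, had 39 and 30 counts at 3 h against 1933 and 1765 at 0 h. Its change of -5.71 (SE 0.28, adjusted p = 3.0e-09) was the largest fall among the genes named by the rule, and its apparent half-life was 0.48 h (95% interval 0.443 to 0.524 h). MT-ND2 had 44715 and 45857 counts at 3 h against 145863 and 152857 at 0 h (-1.72), and MT-CYB had 44151 and 45306 at 3 h against 91048 and 100697 at 0 h (-1.10). MT-CO3 did not pass as deposited, with 190041 and 199993 counts at 3 h against 190338 and 198569 at 0 h, and MT-CO1 was higher (595005 and 633645 at 3 h, 484185 and 501019 at 0 h, 0.32). The mRNAs of complex I thus ranged from MT-ND6 to MT-ND4L (0.49), while those of the cytochrome oxidase and ATP synthase subunits lay between -0.14 and 0.43.
The 12S ribosomal RNA MT-RNR1 rose most of all named genes, with 374054 and 383400 counts at 3 h against 40339 and 50718 at 0 h. Its change was 3.07 as deposited (SE 0.09) and 2.53 scaled to spike-ins. The 16S ribosomal RNA MT-RNR2 had 872443 and 906207 counts at 3 h against 306299 and 311354 at 0 h, a change of 1.53 as deposited and 0.99 scaled to spike-ins. Both rises were larger than the spread between replicates on both scales.

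Genes of the 3′ end processing machinery, to which CPSF6 belongs, were lower in 10 of 23 members and higher in 8, with a median of -0.02 as deposited and -0.55 scaled to spike-ins. FIP1L1, which tethers the poly(A) polymerase, had 89 and 124 counts at 3 h against 453 and 426 at 0 h, a change of -2.05. The cleavage factor II subunits CLP1 (-1.40) and PCF11 (-0.98), the CstF subunit CSTF1 (-1.33) and the poly(A) polymerase PAPOLG (-1.66) fell as well. CPSF1, the large subunit of the cleavage complex, was higher (5632 and 5488 at 3 h, 2938 and 2908 at 0 h, 0.93). Of the partners of CPSF6 in cleavage factor Im, NUDT21 was higher as deposited and did not pass on the spike-in scale (4740 and 4977 counts at 3 h, 3525 and 3527 at 0 h, 0.46 and -0.07), and CPSF7 was lower on both (1128 and 1199 at 3 h, 1349 and 1578 at 0 h, -0.33 and -0.86). Of 15 genes known as 3′ UTR targets of cleavage factor Im, 11 were higher as deposited and none lower, with a median of 0.42 that turned to -0.11 scaled to spike-ins. The largest changes of this list were those of COL1A1 (1.01), TIMP2 and LAMC1. LAMC1, a laminin chain, had 27588 and 26527 counts at 3 h against 14693 and 15187 at 0 h (0.86), and TIMP2, an inhibitor of matrix proteases, had 2093 and 1746 at 3 h against 968 and 1143 at 0 h (0.86).

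Noncoding RNAs also moved both ways. Of 11 long noncoding RNAs, from a list drawn up as nuclear that also holds the cytoplasmic NORAD, 7 were higher and 1 was lower as deposited, with a median of 0.50 that became -0.03 scaled to spike-ins. Without the first 3 h library that spike-in median was 0.15, and without the second it was -0.28. MALAT1, a noncoding RNA of nuclear speckles, had 3257 and 3085 counts at 3 h against 1978 and 2399 at 0 h (0.54 as deposited, 0.01 scaled to spike-ins). NORAD, which binds Pumilio proteins, had 3136 and 2866 counts at 3 h against 4379 and 3899 at 0 h and was the member that fell (-0.46). Of 22 host genes of small nucleolar RNAs 7 were higher and 7 lower, and of 17 BCL2 family genes 6 were higher and 5 lower, beside 43.6% higher and 22.9% lower of all genes, so that neither list is read as standing apart. SNHG12 had 69 and 72 counts at 3 h against 432 and 444 at 0 h (-2.62), SNHG7 had 312 and 289 at 3 h against 1036 and 1117 at 0 h (-1.84), and SNHG29 had 7429 and 7560 at 3 h against 4884 and 4481 at 0 h (0.68 as deposited, 0.15 scaled to spike-ins). BCL2 family genes that fell included the survival factor MCL1 (2281 and 2093 counts at 3 h, 4242 and 3926 at 0 h, -0.90) and the BH3-only proteins BBC3 (66 and 75 at 3 h, 339 and 364 at 0 h, -2.30), BMF (-1.25) and BCL2L11 (-1.0). Over all 706 long noncoding RNAs of the annotation 172 were higher and 81 lower, beside 5261 and 2851 of 11713 protein-coding genes.

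Rises of at least 2-fold as deposited were found in 368 genes, and 65 of the genes tested rose that much scaled to spike-ins (107 without the first 3 h library, 35 without the second). Among called genes with a mean count of at least 100, the rise of NEAT1 came after that of MT-RNR1. NEAT1 is the nuclear noncoding RNA on which paraspeckles are built, and it had 6010 and 7254 counts at 3 h against 958 and 1459 at 0 h, a change of 2.48 as deposited (SE 0.24) and 1.95 scaled to spike-ins. In the TPM table its change was 0.41 and did not pass (adjusted p = 0.11). EME2, a partner of the nuclease MUS81, had 866 and 840 counts at 3 h against 197 and 237 at 0 h, a change of 1.98 as deposited and 1.44 scaled to spike-ins. COL7A1, the collagen of anchoring fibrils, had 1436 and 1416 counts at 3 h against 380 and 397 at 0 h (1.87 and 1.34), and SLC22A18, a membrane transporter of an imprinted region, had 480 and 523 at 3 h against 133 and 146 at 0 h (1.84 and 1.31). In these genes no 3 h library came near a 0 h library.
TEN1-CDK3 (1.89), STX16-NPEPL1 (1.79) and RTEL1-TNFRSF6B (1.77) are entries for transcripts that join neighbouring genes, and LY6G5B (1.74) and the pseudogene SMG1P3 (1.70) overlap genes on their own strand, so their counts are uncertain. Among the 368 genes 44 were pseudogenes and 23 had joined names, beside 401 and 336 among the 12939 tested. Of the 368, 37.8% overlapped a gene on their own strand, beside 34.8% of all tested and 28.8% of the 1305 with a 2-fold fall. PGGHG (1649 and 1461 counts at 3 h, 483 and 467 at 0 h, 1.71), a glucosidase of collagen sugars, had no overlapping gene.

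Apparent transcript length, the ratio of normalized count to TPM relative to the median of the library, follows the mix of isoforms that the quantifier assigned. It was shorter at 3 h in 56 of 12895 genes (0.434%) and longer in 55 (0.427%). NEAT1 became longer by 1.59 in log2 (adjusted p = 0.0033), while its TPM did not pass. CPSF6 became longer by 0.54 (adjusted p = 0.014), and its TPM fell by 1.01 while its count changed by -0.02. ZNF891 (1.55), GOSR1 (0.87), PYROXD1 (0.86), TRAF6 (0.86) and DLG3 (0.78) were the other largest gains. The largest losses were those of the pseudogene FOXO3B (-1.64), SSH2 (-1.30), HOMEZ (-1.28), EPC1 (-1.26), the iron-sensing ubiquitin ligase subunit FBXL5 (-1.25) and MAGI2-AS3 (-1.08). EPC1, a subunit of the NuA4 acetyltransferase, also fell in count (73 and 71 at 3 h, 334 and 403 at 0 h). NUDT21 showed -0.02. When a library was left out, the calls fell to between 10 and 44 longer and between 21 and 45 shorter genes, with the fewest longer genes without the second 3 h library and the fewest shorter genes without the first 0 h library.

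Transcript structure was set beside the change for 11055 genes with a modelled 3′ UTR, as a description and with no test. Genes without the AU-rich heptamer TATTTAT had a median change of 0.32 (7397 genes), those with 1 copy 0.10 (2156), with 2 copies 0.03 (847) and with 3 to 4 copies -0.08 (513), and those with 5 to 9 copies stood at 0.08 (132). For the Pumilio core TGTANAT the medians were 0.39 with no copy (5711 genes), 0.16 with 1, 0.04 with 2, -0.07 with 3 to 4 and -0.15 with 5 to 9 copies (563 genes). Pumilio proteins bind this core and bring in CCR4-NOT. For the C-rich hexamer CCCTCC the medians showed no such order and lay between 0.19 and 0.32. All motifs were read on the transcript strand. Long 3′ UTRs hold more copies of any motif, so the heptamer was also set within classes of length: with and without it the medians were 0.10 and 0.32 at 500 to 1000 bases, 0.08 and 0.21 at 1000 to 2000 and -0.03 and 0.14 at 2000 to 4000.
Exon junctions gave the widest spread. In the quintile of genes with the fewest junctions per kb the median change was -0.20 and 24.7% were lower by at least 2-fold, and over the next quintiles the medians were 0.15, 0.24, 0.33 and 0.43, with 2.58% lower by 2-fold in the last. In siNC cells the outer quintiles stood at -0.35 and 0.52. Spearman's rho over the 11055 genes was 0.31 for junctions per kb, -0.28 for Pumilio cores, -0.19 for the heptamer and 0.36 for the mean count itself. Genes are not independent replicates, and these features go with each other, with length and with base composition. Among the 330 genes with a modelled 3′ UTR that fell by at least 4-fold, the median was 1.06 junctions per kb and 28.2% had 1 or 2 exons, beside 2.84 per kb and 5.98% for all. The 217 that rose by at least 2-fold had a median of 4.88 per kb.

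**Figure D4:**
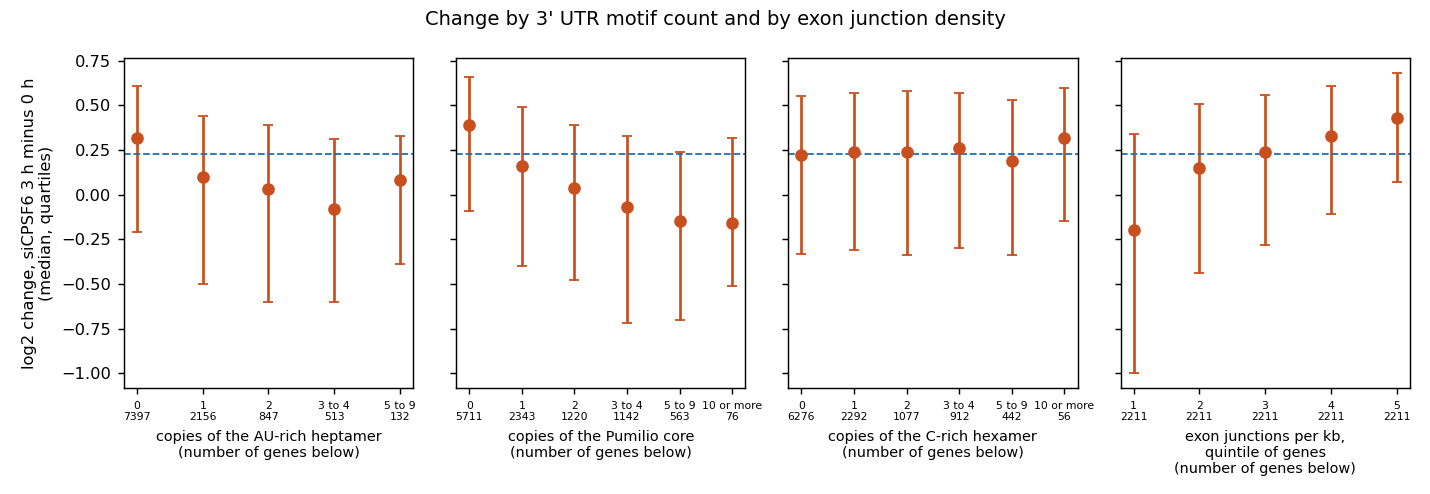
Median log2 change from 0 h to 3 h in siCPSF6 cells as deposited (points, with bars from the lower to the upper quartile over genes) by number of AU-rich heptamers, Pumilio cores and C-rich hexamers in the 3′ UTR and by quintile of exon junction density; the number of genes stands under each class and the dashed line is the median of all 11055 genes, 0.23. The medians fall over the first classes of heptamers and Pumilio cores, stay level for C-rich hexamers, and rise from -0.20 to 0.43 over the quintiles of junction density.

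The change in siCPSF6 cells was next set against that in siNC cells, which share no library with it. The same RNAs were lost in both arms to a large extent: 2630 genes were lower in both, which is 88.7% of the 2965 in siCPSF6 and 79.1% of the 3327 in siNC, and 5076 were higher in both. Of the 353 genes with at least a 4-fold fall in siCPSF6, 351 were also lower in siNC, with medians of -2.50 in siCPSF6 and -2.64 in siNC. The difference of the 2 changes passed the test in 387 genes (2.99%), of which 292 (2.26%) had the higher change in siCPSF6 and 95 (0.734%) the lower. The 292 genes had a median change of -0.44 in siCPSF6 and -1.20 in siNC, and 172 of them were lower in siCPSF6, against 270 in siNC. The 95 genes had a median of 0.22 in siCPSF6 and 0.90 in siNC.
These counts depended on the settings. As deposited 75.5% of the calls were on the higher side, and scaled to spike-ins 96.6% were (171 against 6 genes, not recomputed without single libraries), as the median difference was -0.03 as deposited and 0.12 scaled to spike-ins. With the replicate number as a block 640 genes were higher and 385 lower. Leaving out any 1 of the 8 libraries left 93 to 179 genes on the higher side and 13 to 40 on the lower, with the fewest on both sides without the first siCPSF6 0 h library (93 and 13). The other leave-outs gave 106 and 26 without the second siCPSF6 0 h library, 114 and 40 without the first and 179 and 36 without the second siCPSF6 3 h library, 95 and 17 without the first and 112 and 30 without the second siNC 0 h library, and 165 and 27 without the first and 172 and 28 without the second siNC 3 h library. An unadjusted p under 0.05 was reached by 2127 genes.

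The side with the higher change in siCPSF6 cells was led by SCO2, a copper chaperone of cytochrome oxidase. It had 518 and 523 counts at 3 h and 648 and 628 at 0 h in siCPSF6, against 81 and 81 at 3 h and 344 and 342 at 0 h in siNC, a difference of 1.78 in log2 (SE 0.24, adjusted p = 0.0012). Its level was above that of siNC at both times, and it overlaps genes on both strands. CDR2, an autoantigen of cerebellar degeneration, changed by -1.61 in siCPSF6 and -3.29 in siNC (difference 1.68), with 1026 and 722 counts at 3 h and 2872 and 2406 at 0 h in siCPSF6. CTTNBP2NL (1.64), DCLRE1B (1.56), STBD1 (1.55) and RGL1 (1.51) followed, and all fell in both arms. The call for CTTNBP2NL was lost without any of 6 libraries (adjusted p up to 0.068) and that for RGL1 without any of 6 (up to 0.11). DCLRE1B, the telomere nuclease Apollo, had 208 and 228 counts at 3 h and 499 and 459 at 0 h in siCPSF6, against 55 and 62 at 3 h and 395 and 373 at 0 h in siNC.
Among list members the same direction passed for TRIB3, a stress-induced pseudokinase (1042 and 1055 counts at 3 h and 3236 and 3300 at 0 h in siCPSF6, 259 and 283 at 3 h and 2123 and 1984 at 0 h in siNC, difference 1.28, adjusted p = 0.00021). It also passed for BTG2 (1.12), RHOB (1.01), NFE2L2 (0.87), ZFP36L1 (0.67) and AURKA (0.65). In RHOB the change was -2.46 in siCPSF6 and -3.47 in siNC. Of the 3′ end processing genes CLP1 (195 and 203 counts at 3 h and 508 and 544 at 0 h in siCPSF6, 76 and 62 at 3 h and 454 and 482 at 0 h in siNC, difference 1.35, adjusted p = 0.011), CSTF1 (0.99) and RBBP6 (0.46) fell less in siCPSF6. The calls of all 3 were lost without the first 0 h library of either arm. Scaled to spike-ins RBBP6 (adjusted p = 0.23), ZFP36L1 (adjusted p = 0.070) and AURKA (adjusted p = 0.052) did not pass. The call for ZFP36L1 was also lost without the second siCPSF6 0 h library (adjusted p = 0.068) or the first siNC 0 h library (adjusted p = 0.057).
As deposited, THBS1, a matrix glycoprotein, moved in opposite directions: 14033 and 12388 counts at 3 h and 10296 and 10472 at 0 h in siCPSF6, against 3619 and 3502 at 3 h and 5270 and 4711 at 0 h in siNC (0.34 and -0.48, difference 0.83, adjusted p = 0.0036). It was 1 of 23 genes called in opposite directions as deposited, of which 21 were higher in siCPSF6 and lower in siNC, and the difference passed for 17 as deposited and for 8 scaled to spike-ins. SEMA7A (difference 0.82), the ubiquitin ligase RNF6 (0.71) and fibrillin FBN1 (1.41) did likewise, and all 4 overlap a gene on their own strand. Scaling to spike-ins lowers every siCPSF6 change by about 0.534, the log2 ratio of the spike-in sums at 3 h and 0 h. The deposited rises of THBS1, SEMA7A (0.44) and RNF6 (0.30) are smaller than that, and that of FBN1 (0.80) is larger. On the spike-in scale THBS1, SEMA7A and RNF6 were therefore not higher at 3 h in siCPSF6. The call for FBN1 was lost without any of 7 libraries (adjusted p up to 0.11). SEMA7A, RNF6, FBN1 and THBS1 were chosen for naming after their values were seen.

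In the other direction RBM15, a subunit of the m6A methyltransferase complex, had 355 and 345 counts at 3 h and 1097 and 990 at 0 h in siCPSF6, against 228 and 236 at 3 h and 203 and 193 at 0 h in siNC. It fell by 1.57 in siCPSF6 and changed by 0.23 in siNC, a difference of -1.80 (SE 0.17, adjusted p = 0.00015), and its siCPSF6 level at 0 h was far above that of siNC. JUND, the AP-1 subunit whose site is shown above, had 86 and 68 counts at 3 h and 409 and 423 at 0 h in siCPSF6, against 454 and 494 at 3 h and 750 and 766 at 0 h in siNC. Its difference was -1.75 (SE 0.23, adjusted p = 0.0012), and in the TPM table -1.20 (adjusted p = 0.21). XBP1 fell by 3.20 in siCPSF6 and by 2.47 in siNC (difference -0.73, adjusted p = 0.0033), which scaled to spike-ins did not pass (-0.57, adjusted p = 0.30). MIX23 (-1.12), GLTPD2 (-1.17), PPT2-EGFL8 (-1.18) and UPK3BL1 (-1.4) made up the largest of this side, and RPLP2 (-0.39) was 1 of 11 ribosomal protein genes on it. MIX23 lost the call without any of 5 libraries (adjusted p up to 0.097), GLTPD2 without any of 4 (up to 0.083), PPT2-EGFL8 without any of 7 (up to 0.18) and RPLP2 without any of the 8 (up to 0.17). For CPSF6 the difference was -0.68 (adjusted p = 0.0082), with a rise of 0.66 in siNC, and it did not pass scaled to spike-ins (-0.52, adjusted p = 0.39) or without the first siCPSF6 0 h library (-0.63, adjusted p = 0.059).
Genes with the higher change in siCPSF6 had few junctions: 283 of the 292 had a modelled 3′ UTR, with a median of 1.33 junctions per kb, beside 2.77 for 73 of the 95 with the lower change and 2.84 for all. Their median 3′ UTR length was 1831 bases, beside 810 bases for the 73. Of the 292 genes 283 fell in siNC, and of the 95 genes 20 did. Genes with at least a 4-fold fall in siCPSF6 also had few junctions, with a median of 1.06 per kb. These are descriptions with no test.

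**Figure D5:**
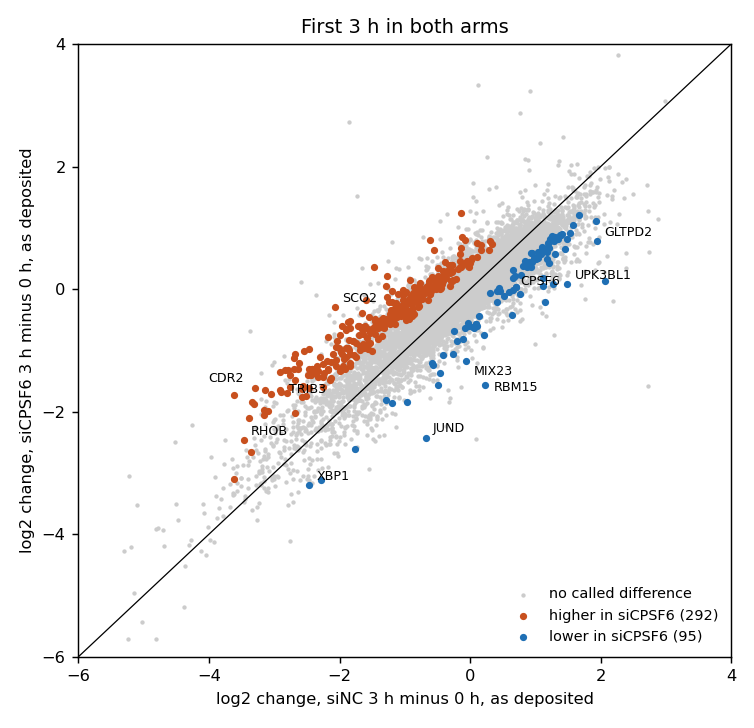
Log2 change from 0 h to 3 h as deposited in siCPSF6 cells (y axis) against siNC cells (x axis) for 12939 genes, with the line of equal change; orange marks 292 genes with a higher and blue 95 genes with a lower change in siCPSF6 at an adjusted p under 0.05. RBM15 and JUND lie far below the line and SCO2 and CDR2 above it.

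The last comparison set the first 3 h against the next 3 h of the siCPSF6 course. The 2 changes share the 3 h libraries, so a deviation in those enters both with opposite sign. The first change was lower than the second in 1281 genes (9.9%) and higher in 1176 (9.09%), or 19% in either direction. Scaled to spike-ins these were 1155 and 37 genes. With the replicate block, as deposited, 1623 genes were lower and 2610 higher. Without the second 3 h library 720 were lower and 283 higher. Leaving out the first 3 h library gave 451 higher genes, the first or second 0 h library 660 or 585, and the first 6 h library 777.
As deposited, several of the largest early falls were not followed by a further fall. The median of all genes over the next 3 h was 0.13 as deposited and -0.20 scaled to spike-ins. Small rises in that step as deposited can therefore be falls on the spike-in scale. NFKBIA changed by -5.44 in the first 3 h and 0.18 in the next, with 45 and 64 counts at 6 h, a difference of -5.62. TRIB1 (0.33 in the next 3 h), SOX9 (0.53), HES1 (0.12) and DUSP6 (0.69) were likewise not lower in the next step, and the call for DUSP6 was lost without the second 3 h library (adjusted p = 0.073). MT-ND6 went on to fall by 0.86, with 14 and 24 counts at 6 h. Of the 353 genes with at least a 4-fold early fall, 75 were lower and 11 higher over the next 3 h, the median change there was -0.12 as deposited, and 314 fell more in the first step. As the 353 genes were picked by the size of their first fall, the count of 314 was largely set by that choice. Where few counts were left at 3 h, a second large fall could hardly be seen.
Some early falls went on. ID2 fell by 3.25 and then by 1.40, to 217 and 215 counts at 6 h. XBP1 fell by 3.20 and then by 1.48, and RHOB by 2.46 and then by 1.27. On the rising side MT-RNR1 (3.07 first, 0.31 next), NEAT1 (2.48 and 0.37), EME2 (1.98 and 0.33), COL7A1 (1.87 and 0.33), TEN1-CDK3 (1.89 and 0.37) and LCN12 (1.55 and -0.16) gained mainly in the first step. The calls of LCN12 (adjusted p = 0.15) and NEAT1 (adjusted p = 0.11) were lost without the second 3 h library. In ribosomal protein mRNAs 43 of 78 had a higher first than second change, with medians of 0.77 and 0.36 as deposited, and of 0.24 and 0.04 scaled to spike-ins.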

How the data were processed

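mRNA of HepG2 cells was sequenced with a directional kit in 12 libraries, 6 groups of 2. STAR, RSEM and hg38 are named, per the submitters' processing notes; their versions, the annotation and the strand setting were not given in the sources used here. Normalized counts, as deposited, are treated as a score: the authors scaled gene counts to an equal upper quartile (660.5 or 661 in every library over 22235 entries, 87 of them spike-ins) and rounded them, so tests for raw counts were not used. The deposited TPM table, made by the authors over the same entries, gave an alternative and the apparent length. Read depth was not used here; precision is given by the spread between libraries.

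limma 3.58.1 in R 4.3.3, using its trend and robust options, was run on log2(normalized count + 1) and log2(TPM + 0.1). Each fit took all 12 libraries and 6 group means, which leaves 6 residual degrees of freedom, with two-sided p-values, Benjamini-Hochberg adjustment over every gene whose mean reached 20, and a threshold of 0.05. A fold on these scales understates the change of low genes. For spike-in scaling, counts were multiplied by the mean spike-in sum over the library's own. Identifiers matched GENCODE 29 for 21694 of 22148 genes, which may not be the authors' annotation.

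Members and gene lists were chosen with earlier results of these data known. Named genes are CPSF6, the largest falls and rises of each comparison among called genes with a mean of at least 100, whose values do not overlap in the 3 h against 0 h comparison, and, from each list, at most 4 members of lowest p; list members beside these were named after their values were seen. Replicates correlated at 0.9911 to 0.9931 and none were copies. Deviations of same-numbered libraries from group means correlated at 0.11 to 0.24 over 15 pairs of groups (0.133 for siCPSF6 0 h with 3 h), so the numbers, which come from the labels, were taken to pair libraries. The main fits have no block, so their SEs and calls leave this pairing out. Counts with the replicate block are given beside several of the main ones. The results of 1 of the gene lists are not reported here.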

Additional observations from a re-analysis of the deposited data

Results flagged for a closer look

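The tests of the difference between the arms picked out 292 genes whose first 3 h change was higher in siCPSF6 than in siNC and 95 in which it was lower. Of the genes whose difference between the arms is given above, the difference of the log2 change, siCPSF6 minus siNC, passed and was higher for SCO2 (1.78), CDR2 (1.68), CTTNBP2NL (1.64), DCLRE1B (1.56), STBD1 (1.55), RGL1 (1.51), FBN1 (1.41), CLP1 (1.35), TRIB3 (1.28), BTG2 (1.12), RHOB (1.01), CSTF1 (0.99), NFE2L2 (0.87), THBS1 (0.83), SEMA7A (0.82), RNF6 (0.71), ZFP36L1 (0.67), AURKA (0.65) and RBBP6 (0.46). It was lower for RBM15 (-1.8), JUND (-1.75), UPK3BL1 (-1.4), PPT2-EGFL8 (-1.18), GLTPD2 (-1.17), MIX23 (-1.12), XBP1 (-0.73), CPSF6 (-0.68) and RPLP2 (-0.39). Some genes named above only for other results passed as well. Among them were DUSP14 (0.76), ACVR1 (0.80) and MCL1 (0.67) on the higher side and MT-ND4L (-0.51) on the lower. Groups of 2 libraries are too small for a search for single outlying libraries.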

How the results depend on the processing

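The rises as deposited (5647 genes) became 381 with spike-in scaling, 1178 in the TPM table and 294 in the TPM table scaled to spike-ins, and the falls (2965) became 4971 with spike-in scaling and 4798 in the TPM table; without 1 library they were 4971 to 5049 and 2557 to 2728. Scaled to spike-ins, the rises (381) became 662 with the replicate block, 152 with only the 4 libraries compared and 156 to 1503 without 1 library, and the falls 3769 to 6380. For the difference between the arms, genes higher (292) and lower (95) became 640 and 385 with the replicate block, 171 and 6 with spike-in scaling, 51 and 3 in the TPM table and 93 to 179 and 13 to 40 without 1 library; with no filter 53 were lower. For the first minus the last 3 h, genes higher (1176) became 2610 with the replicate block, 37 with spike-in scaling, 105 in the TPM table and 283 to 919 without 1 library, and genes lower (1281) 720 to 1156. Apparent length gave 10 to 44 longer and 21 to 45 shorter genes without 1 library; its alternatives were chosen after seeing the data. The CPSF6 change (-0.02) lay between -0.14 and 0.11 without 1 library, and was 0.03 without the first 0 h library. Of 1333 recomputed values of 89 named gene changes, 1305 kept direction and call, 22 lost the call, 4 gained it and 2 reversed. For 28 differences between the arms 332 of 420 kept the call and 88 lost it, and for 11 first-minus-last values 94 of 99 kept it. List medians moved by more than their spread in 199 of 480 recomputations. The cause of these shifts was not tested. The block changed no other count by over 1.5 times. With 1 library left out, an arm has 1 sample, which is assumed to vary like the other groups. Spike-in values rest on 2 libraries per group whose spike-in shares differ, and values near 0 counts on few reads.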
